A study of Mus musculus with 6 samples.

Results

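Naive pluripotency genes were followed in RNA-seq read counts of mouse PGCLCs. These primordial germ cell-like cells are derived in culture from stem cells as a model of the earliest germ line. The 10 members were fixed by name (Klf2, Klf4, Klf5, Esrrb, Tbx3, Tfcp2l1, Zfp42, Nr0b1, Nr5a2 and Dppa5a), and each of the 10 symbols matched 1 of the 37991 gene IDs in the table. All 10 passed the filter on low counts that left 16420 genes to test. The 3 Ezh2 KO libraries (genotype label Ezh2-/-, CreERT2) came from aggregates given 4-hydroxytamoxifen in ethanol, which activates the Cre recombinase that deletes floxed Ezh2. The 3 Ctrl libraries (Ezh2f/f, CreERT2) came from aggregates given ethanol alone. Both groups shared the C57BL/6 background, the Cre-ERT2 transgene, an induction medium with BMP2, SCF, LIF and EGF, and collection on day 4 as sorted cells. The stem cells had been kept with LIF, a MEK inhibitor and the GSK3 inhibitor CHIR99021, and were then carried through an epiblast-like step. The Cre-ERT2 promoter, the number of stem cell clones, the sorting gate and the origin of the replicates were not stated in the sources used here. The action of 4-hydroxytamoxifen and Cre on these genes cannot be told apart from that of Ezh2 loss in this design, and the p-values rest on a spread between libraries that may be partly technical.

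The naive state of pluripotency is held by a web of transcription factors that keep one another and the core factors Pou5f1, Sox2 and Nanog active. LIF feeds it through Stat3. Inhibition of MEK protects it, and inhibition of GSK3 does so by relieving repression by Tcf7l1. Most of these factors fall when cells pass to the epiblast state, and several return in early germ cells. Ezh2 catalyses H3K27me3, the repressive histone mark of polycomb repressive complex 2. Of the members, 9 encode transcriptional regulators. Dppa5a does not: it encodes an RNA-binding protein with a KH domain and serves as a marker of pluripotent and germ cells.

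None of the 10 naive genes passed the test for a difference between Ezh2 KO and Ctrl PGCLCs. With edgeR's quasi-likelihood test, 0 of 10 were higher and 0 of 10 lower at an adjusted p under 0.05, where the same test called 0% of all 16420 genes in each direction. At an unadjusted p under 0.05 the test held 0 of the 10 members, against 459 of all genes (2.8%). DESeq2, which called 0.0201% of the genes it tested, and limma-voom also called 0 members. The log2 fold changes of the members, Ezh2 KO over Ctrl, ran from -0.68 (Klf5) to 0.46 (Tfcp2l1), with 3 positive and 7 negative. Their median was -0.09, beside 0.01 over all tested genes. Neither the balance of signs nor the median was stable: without Ctrl replicate 1, 6 members were positive and 4 negative, with a median of 0.11, and without Ezh2 KO replicate 2, 5 were positive and 5 negative, with a median of 0.02. In no member did the 3 Ezh2 KO libraries lie wholly on one side of the 3 Ctrl libraries, a pattern found as higher in 4.07% and as lower in 4.03% of all tested genes. For 7 members the 95% interval of the log2 fold change lay within a 2-fold change in either direction, and for Klf5, Esrrb and Tbx3 it did not.

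Total counts ran from 27072150 to 38643944 in the Ezh2 KO libraries and from 27358959 to 49382146 in the Ctrl libraries. Ezh2 itself was at 40.8, 67.1 and 70.0 CPM in Ezh2 KO replicates 1 to 3, against 91.8, 78.1 and 95.3 CPM in Ctrl replicates 1 to 3. Reads of the gene were thus left in every Ezh2 KO library. The counts are per whole gene and do not show which exons were read. Intact transcripts and transcripts from a deleted allele therefore cannot be told apart. CPM are read counts scaled to a common library size. Germ cell markers were detected in all libraries: 11 of 11 were abundant enough to test. Their log2 fold changes were positive for 5 and negative for 6, with a median of -0.11. Alpl averaged 290 ± 116 CPM in Ezh2 KO and 424 ± 110 CPM in Ctrl (SD, n = 3 each). Dppa3 averaged 181 ± 52.5 CPM in Ezh2 KO and 222 ± 28.6 CPM in Ctrl, and Kit 156 ± 49.0 CPM in Ezh2 KO and 167 ± 106 CPM in Ctrl. Tfap2c, a factor of germ cell specification, averaged 227 ± 73.0 CPM in Ezh2 KO and 300.2 ± 20.1 CPM in Ctrl (SD, n = 3 each). Prdm1, which starts the germ cell program, was at 4.30 ± 1.31 CPM in Ezh2 KO and 5.96 ± 1.23 CPM in Ctrl (SD, n = 3 each). The germ cell homeobox genes Rhox6 and Rhox9, whose similar sequences can share reads, were higher in Ezh2 KO without overlap, as were 4.07% of all tested genes. Rhox6 averaged 133 ± 33.0 CPM in Ezh2 KO and 61.4 ± 22.6 CPM in Ctrl, and Rhox9 averaged 111 ± 25.4 CPM in Ezh2 KO and 52.8 ± 18.6 CPM in Ctrl (SD, n = 3 each). DESeq2 with the replicate number as a block called both as higher (adjusted p = 0.00289 for Rhox6 and 0.00470 for Rhox9), as it did 0.285% of the genes it tested in either direction, and edgeR's quasi-likelihood test called 0 of the 11 markers. Ezh2 KO replicate 2, at 78.0, and Ctrl replicate 1, at -61.4, lay at opposite ends of the first principal component, which held 55.5% of the variance, so values without them are given below. Deviations of same-numbered libraries from their group means correlated at 0.58, 0.37 and 0.19 for numbers 1 to 3, and such libraries are treated as 3 pairs. Ezh2 KO replicate 2 and Ctrl replicate 3 correlated at 0.30, so the support for number 3 is weak. No label states the pairing.

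Per kilobase of exon, the naive genes spanned a wide range of levels. Levels were compared between genes as CPM per kb, using exon lengths of an annotation of another build, so they are approximate. Dppa5a stood far above the rest, at 10975 ± 2498 CPM per kb in Ezh2 KO and 12156 ± 236 CPM per kb in Ctrl (SD, n = 3 each). Over all 6 libraries its mean level per kb was 110-fold that of the next gene, Nr0b1. Processed copies of Dppa5a are known in the mouse genome, and how shared reads were counted is not stated, so its level is uncertain.

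Nr0b1, at 92.6 ± 21.1 CPM per kb in Ezh2 KO and 118 ± 28.3 in Ctrl, was followed by Zfp42, at 64.1 ± 4.28 in Ezh2 KO and 67.2 ± 0.751 in Ctrl (SD, n = 3 each). The lowest library of Nr0b1, at 69.5 CPM per kb, still exceeded the highest of Zfp42, at 68.1. Below them came 6 genes in the order Tbx3, Esrrb, Klf4, Klf2, Klf5 and Tfcp2l1, with mean levels of 32.4 down to 17.2 CPM per kb over all 6 libraries. Neighbours within this group of 6 overlapped in their library ranges, so their order is not resolved. Nr5a2 was the lowest, at 4.76 ± 0.619 CPM per kb in Ezh2 KO and 3.64 ± 1.04 in Ctrl (SD, n = 3 each), and did not overlap with Tfcp2l1.

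**Figure D1:**
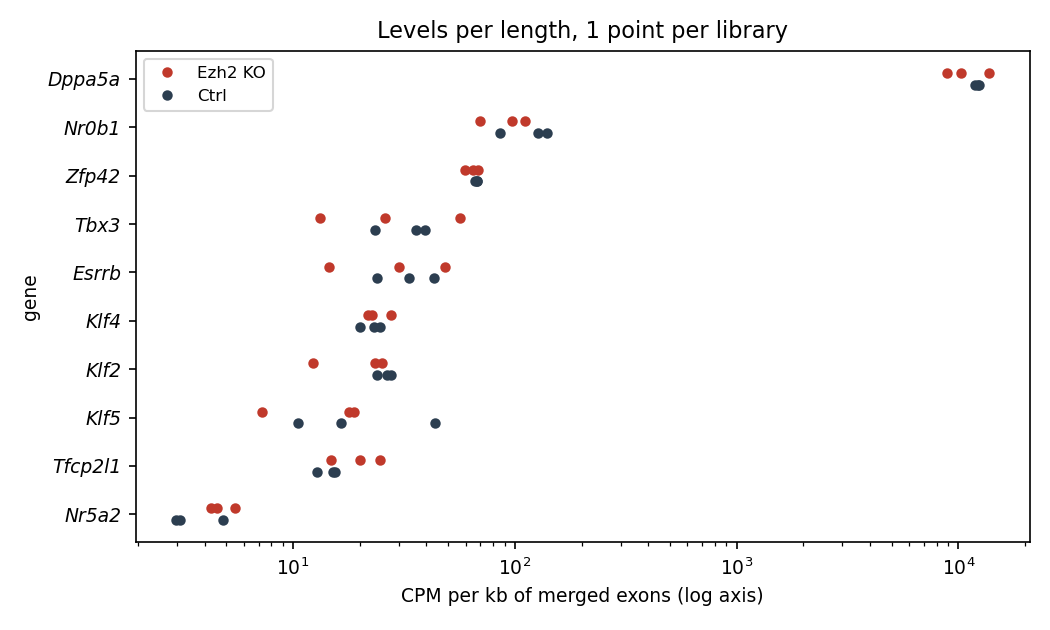
Levels of the 10 naive genes as CPM per kb of merged exons on a log axis, with 1 point per library, Ezh2 KO above Ctrl within each gene. Dppa5a lies at 8896 to 13746 CPM per kb and Nr5a2 at 2.98 to 5.46, and the 6 genes from Tbx3 to Tfcp2l1 overlap with their neighbours.

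The Krüppel-like factors Klf2, Klf4 and Klf5 are zinc finger activators that bind GC-rich and CACCC elements and can stand in for one another in stem cell self-renewal. Klf2 was at 22.8, 46.4 and 43.2 CPM in Ezh2 KO replicates 1 to 3, against 51.1, 49.0 and 44.3 CPM in Ctrl replicates 1 to 3. Ezh2 KO replicate 1 stood alone at the bottom, and the other 5 libraries lay between 43.2 and 51.1 CPM. The log2 fold change of Klf2 was -0.36 ± 0.27 SE (95% interval -0.99 to 0.27, edgeR adjusted p = 0.976), and without Ezh2 KO replicate 1 it was -0.10.

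Klf4, a reprogramming factor, was steadier, at 66.7, 69.5 and 84.4 CPM in Ezh2 KO and 75.5, 61.5 and 70.6 CPM in Ctrl. The groups overlapped, and the highest library was only 1.37-fold the lowest. Its log2 fold change was 0.09 (95% interval -0.30 to 0.48), and without Ezh2 KO replicate 3 it was -0.02.

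Klf5, which favours proliferation and holds back primitive endoderm, varied most of all members. It was at 93.5, 37.8 and 98.4 CPM in Ezh2 KO replicates 1 to 3, against 228, 54.6 and 85.8 CPM in Ctrl replicates 1 to 3. Ezh2 KO replicate 2 was the lowest library and Ctrl replicate 1, 6.04-fold above it, the highest, and the remaining libraries lay between them. The log2 fold change of Klf5 was -0.68 ± 0.54 SE (95% interval -1.94 to 0.57), and it was 0.13 without Ctrl replicate 1, so its sign rested on that library.

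**Figure D2:**
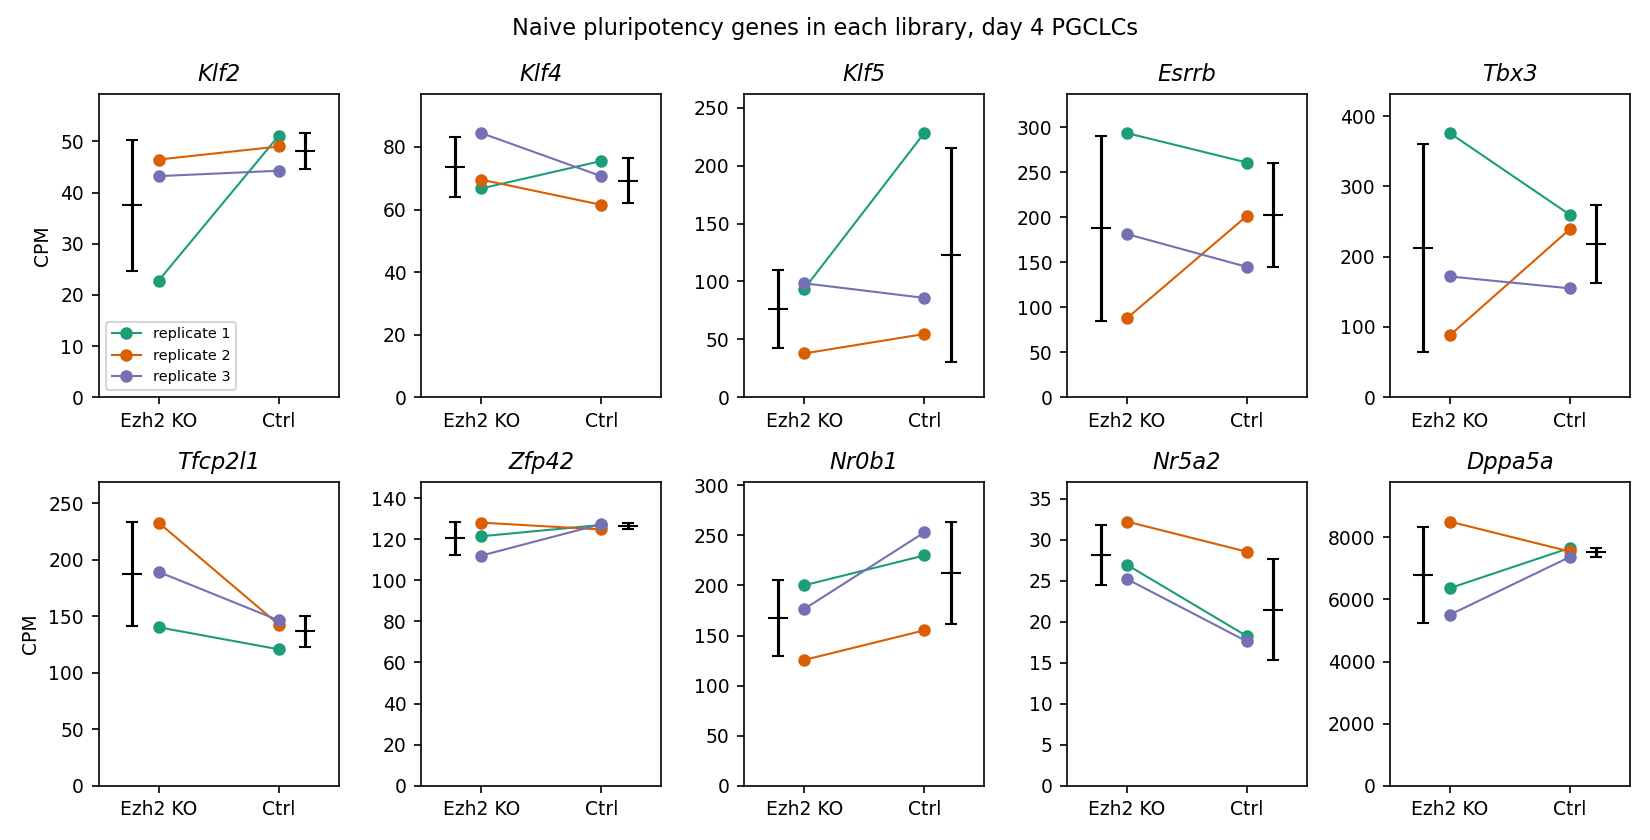
CPM of each naive gene in the Ezh2 KO (left) and Ctrl (right) libraries, with lines joining libraries of the same replicate number and black marks for the mean ± SD of 3 libraries. No gene has all Ezh2 KO points on one side of all Ctrl points; lines of Tfcp2l1 and Nr5a2 all run higher on the Ezh2 KO side, and those of Klf2 and Nr0b1 all lower.

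The nuclear receptors of the set are Esrrb, an orphan receptor that Tcf7l1 represses, Nr5a2, an orphan receptor that can activate Pou5f1, and Nr0b1, which lacks a classical DNA-binding domain and acts as a corepressor. Esrrb was at 294, 87.8 and 181 CPM in Ezh2 KO replicates 1 to 3, against 261, 202 and 145 CPM in Ctrl replicates 1 to 3. The lowest and the highest library were both Ezh2 KO. The log2 fold change of Esrrb was -0.11 ± 0.40 SE (95% interval -1.04 to 0.82), and it was 0.24 without Ezh2 KO replicate 2 and 0.12 without Ctrl replicate 1.

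Nr5a2 was at 26.9, 32.2 and 25.2 CPM in Ezh2 KO replicates 1 to 3, against 18.2, 28.5 and 17.6 CPM in Ctrl replicates 1 to 3. Each Ezh2 KO library exceeded the Ctrl library of its number, but Ctrl replicate 2 lay above the other 2 Ezh2 KO libraries. Its log2 fold change was 0.39 ± 0.25 SE (95% interval -0.18 to 0.97, edgeR adjusted p = 0.976).

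Nr0b1, an X-linked gene, was at 200.2, 126 and 177 CPM in Ezh2 KO replicates 1 to 3, against 230.0, 155 and 253 CPM in Ctrl replicates 1 to 3. Each Ezh2 KO library was below its Ctrl partner, by a log2 ratio of -0.20, -0.30 and -0.52 in pairs 1 to 3, while the groups overlapped. The log2 fold change of Nr0b1 was -0.34 ± 0.24 SE (95% interval -0.89 to 0.20, edgeR adjusted p = 0.976).

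Tfcp2l1 is a factor of the CP2 family through which LIF and GSK3 inhibition both sustain the naive state. It had the smallest unadjusted p of the 10 members. Its level was 140 CPM, 233 CPM and 189 CPM in Ezh2 KO replicates 1 to 3, against 121 CPM, 143 CPM and 146 CPM in Ctrl replicates 1 to 3. The top pair of libraries were Ezh2 KO, but Ezh2 KO replicate 1 lay among the Ctrl libraries. The log2 fold change of Tfcp2l1 was 0.46 ± 0.20 SE, or 1.37-fold (95% interval 0.995-fold to 1.89-fold, edgeR unadjusted p = 0.0526, adjusted p = 0.976). With the replicate number as a block it was 0.43 ± 0.17 SE (edgeR unadjusted p = 0.0272, adjusted p = 0.492). It was the 1 member with an unadjusted p under 0.05 in that fit, as were 9.1% of all tested genes.

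Tbx3, a T-box repressor that LIF signalling sustains through PI3K, was at 376, 87.9 and 172 CPM in Ezh2 KO replicates 1 to 3, against 260, 239 and 155 CPM in Ctrl replicates 1 to 3. As for Esrrb, Ezh2 KO libraries formed both ends of the range, which was 4.27-fold wide. Its log2 fold change was -0.04 ± 0.46 SE (95% interval -1.11 to 1.03). The value was 0.33 without Ezh2 KO replicate 2, 0.09 without Ezh2 KO replicate 3, 0.11 without Ctrl replicate 1 and 0.03 without Ctrl replicate 2, so its direction is not fixed by these libraries. An antisense gene, Tbx3os1, shares 115 exonic bases with Tbx3 and was at 0.116 to 0.321 CPM in Ezh2 KO and 0.0708 to 0.289 CPM in Ctrl.

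Zfp42, also called Rex1, is a zinc finger gene used as a reporter of the naive state. It was at 121, 128 and 112 CPM in Ezh2 KO replicates 1 to 3, against 127, 125 and 127 CPM in Ctrl replicates 1 to 3. It was the steadiest member, with the highest library 1.14-fold the lowest. Its log2 fold change was -0.07 ± 0.13 SE (95% interval -0.37 to 0.24), which leaves room for a level of 77.1% to 118% of Ctrl.

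Dppa5a was at 6365, 8509 and 5506 CPM in Ezh2 KO replicates 1 to 3, against 7659, 7546 and 7368 CPM in Ctrl replicates 1 to 3. The Ctrl libraries lay inside the range of the Ezh2 KO libraries, which spread more widely. The log2 fold change of Dppa5a was -0.15 ± 0.17 SE (95% interval -0.55 to 0.25).

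**Figure D3:**
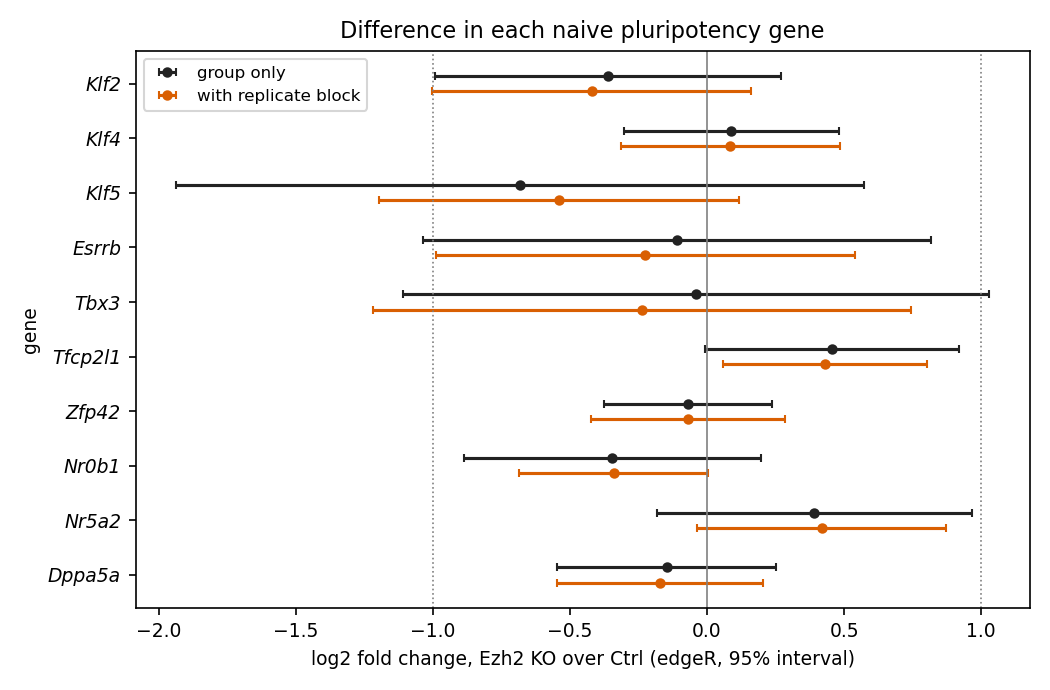
Log2 fold change of each naive gene, Ezh2 KO over Ctrl, with 95% intervals from edgeR, without (black) and with (orange) the replicate block. Dotted lines mark a 2-fold change; the interval of Zfp42 is among the narrowest, at -0.37 to 0.24, and that of Klf5 the widest, at -1.94 to 0.57 without the block.

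Promoter sequences are shown for the member of smallest p (Tfcp2l1), a member lower in all pairs (Nr0b1) and the steadiest member (Zfp42). They are RefSeq windows on GRCm38.p6, from 250 bases before to 50 bases after the annotated start, a build other than that of the counts. Of the members, 7 matched this table, and Klf5, Tbx3 and Dppa5a had no entry. Capitals mark every match, on either strand, to any of 4 motifs: the octamer ATTTGCAT bound by POU factors, the nuclear receptor half-site AGGTCA, the STAT motif TTCNNNGAA and the CACCC box CCACNCCC bound by KLF proteins.
Tfcp2l1 promoter, chr1:118627695-118627994, plus strand: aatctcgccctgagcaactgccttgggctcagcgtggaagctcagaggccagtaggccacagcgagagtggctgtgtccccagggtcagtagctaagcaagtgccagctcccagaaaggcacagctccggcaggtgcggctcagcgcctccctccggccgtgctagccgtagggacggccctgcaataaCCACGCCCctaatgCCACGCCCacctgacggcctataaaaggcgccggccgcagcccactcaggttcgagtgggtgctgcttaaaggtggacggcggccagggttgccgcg
Nr0b1 promoter, chrX:86191525-86191824, plus strand: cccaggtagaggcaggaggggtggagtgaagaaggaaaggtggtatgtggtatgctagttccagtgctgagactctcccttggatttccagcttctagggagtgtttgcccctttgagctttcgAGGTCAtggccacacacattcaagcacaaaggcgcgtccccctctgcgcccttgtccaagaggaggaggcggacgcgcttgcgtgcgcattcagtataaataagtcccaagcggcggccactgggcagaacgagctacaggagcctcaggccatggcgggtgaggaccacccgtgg
Zfp42 promoter, chr8:43306960-43307259, minus strand: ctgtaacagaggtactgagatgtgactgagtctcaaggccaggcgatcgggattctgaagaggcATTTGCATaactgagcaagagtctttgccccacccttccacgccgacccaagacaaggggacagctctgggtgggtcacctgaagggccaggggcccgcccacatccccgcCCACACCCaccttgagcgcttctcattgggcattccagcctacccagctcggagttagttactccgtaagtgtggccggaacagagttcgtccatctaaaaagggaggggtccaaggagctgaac
Counted from the start site, Tfcp2l1 held CACCC boxes starting at -61 and -47, Nr0b1 a half-site at -126, and Zfp42 an octamer at -186 and a CACCC box at -75. The octamer occurred in 1.74% of the 32851 RefSeq windows of this length, the half-site in 16.3%, the STAT motif in 8.30% and the CACCC box in 17.6%. The windows of Klf2 and Klf4 held no match, that of Esrrb upstream held a STAT motif at -178, and those of Nr5a2 held a half-site at -64 in one and a CACCC box at -157 in the other. A match describes letters, not binding.

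Taken by pairs, the members did not move as a block. Tfcp2l1 and Nr5a2 were higher in all 3 Ezh2 KO libraries than in their Ctrl partners, where 17.9% of all tested genes were. Klf2 and Nr0b1 were lower in all 3, where 14.8% of all tested genes were. These 4 of 10 members compare with 32.6% of all tested genes that kept 1 direction in all pairs, so the share of the members is near the background. The log2 ratios of Tfcp2l1 were 0.22, 0.71 and 0.37 in pairs 1 to 3, those of Nr5a2 0.56, 0.17 and 0.52, and those of Klf2 -1.16, -0.08 and -0.03. The median log2 ratio over the 10 members was -0.12 in pair 1, -0.02 in pair 2 and 0.17 in pair 3.

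The members differed widely in how far their libraries spread. Centred on its 6-library mean of log2 CPM, a member had a range of 0.19 (Zfp42) to 2.59 (Klf5), with a median of 0.98. The median range was 0.97 over all tested genes and 0.63 over the 6662 genes with a mean of at least 20 CPM, a level that every member exceeded. In Ezh2 KO replicate 2, Klf5, Tbx3 and Esrrb were lowest, at -1.16, -1.15 and -1.05 from their means. In the same library Tfcp2l1 and Nr5a2 were at their highest, at 0.56 and 0.41.

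The first principal component, whose positive end was Ezh2 KO replicate 2, weighted the members in nearly the same order. Among all tested genes the loading of Klf5 stood at percentile 3.49, that of Tbx3 at 5.35 and that of Esrrb at 6.61. Tfcp2l1 stood at percentile 84.9 and Nr5a2 at 76.4, while Klf4 (47.3) and Zfp42 (48.5) were near the middle. These loadings come from the same libraries and are a description.

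Without Ezh2 KO replicate 2 and Ctrl replicate 1 the log2 fold changes were 0.46 for Klf5, 0.45 for Esrrb and 0.47 for Tbx3, each opposite in sign to the value from all 6 libraries, and 0 members were called by edgeR. Both libraries were picked as the ends of the first component, on which these genes load strongly, so the change of sign is no independent check. Transcript GC was 56.0% for Esrrb and 53.5% for Tbx3, but 46.9% for Klf5, 47.4% for Tfcp2l1 and 47.7% for Nr5a2. With each library corrected for GC, the range of Esrrb was 1.10, against 1.74 uncorrected, and that of Tbx3 1.75, against 2.09. For Klf2, whose GC of 61.6% was the highest of the members, the range was 2.09, against 1.16 uncorrected, and its log2 fold change was 0.09 in place of -0.36. The range also widened for Klf4 (0.90, against 0.46), Zfp42 (0.35, against 0.19) and Klf5 (2.86, against 2.59). It narrowed for Tfcp2l1, Nr0b1, Nr5a2 and Dppa5a, and Zfp42 kept the smallest range. The part of GC content in these differences was not tested.

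**Figure D4:**
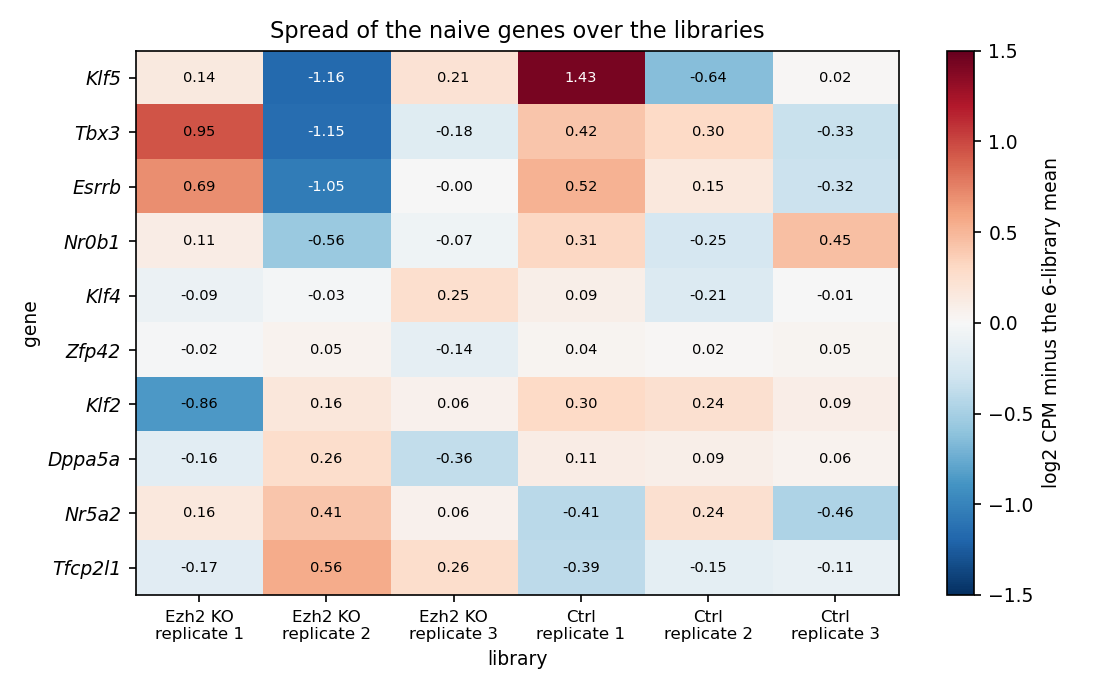
Log2 CPM of each naive gene minus its mean over the 6 libraries, with Ezh2 KO libraries at the left and Ctrl libraries at the right; genes are ordered by their value in Ezh2 KO replicate 2. Klf5, Tbx3 and Esrrb reach -1.16 to -1.05 in that library, where Tfcp2l1 reaches 0.56, and Zfp42 stays within 0.19 over all libraries.

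The mean profile of the 10 members was nearly flat, from -0.25 in Ezh2 KO replicate 2 to 0.24 in Ctrl replicate 1 on the log2 scale. Of 12226 other genes, the 5 closest to it by root-mean-square difference over the 6 libraries were Dedd2 (0.0326), Dbnl (0.0337), Ears2 (0.0349), Tln2 (0.0367) and Safb2 (0.0392). The members themselves lay at 0.171 (Zfp42) to 0.667 (Klf5) from their own mean. The 5 genes were picked for being closest and the members were not, so the distances of the 5 are smaller by that choice.

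Among 24 other genes of the naive network, all tested, 0 were called in either direction by edgeR, and the median log2 fold change was -0.04, with 10 positive and 14 negative. Nanog, a core pluripotency factor, averaged 507 ± 66.1 CPM in Ezh2 KO and 514 ± 45.4 CPM in Ctrl (SD, n = 3 each). Pou5f1, another core factor, averaged 278 ± 133 CPM in Ezh2 KO and 363 ± 93.0 CPM in Ctrl, with 145 CPM in Ezh2 KO replicate 2, its lowest library as for Esrrb and Tbx3. Sall4, a zinc finger partner of Pou5f1, averaged 380 ± 41.3 CPM in Ezh2 KO and 403 ± 52.8 CPM in Ctrl, and Rif1, a telomere and replication factor, 384 ± 102 CPM in Ezh2 KO and 344 ± 69.5 CPM in Ctrl.

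Genes that drive exit from the naive state gave 0 edgeR calls of 10, with a median of -0.25. Etv5, an ETS factor downstream of FGF, was at 215 ± 101 CPM in Ezh2 KO and 297 ± 85.9 CPM in Ctrl (SD, n = 3 each). Rbpj, the Notch effector, was at 241 ± 39.5 CPM in Ezh2 KO and 174 ± 32.2 CPM in Ctrl (log2 fold change 0.47, edgeR unadjusted p = 0.0355, adjusted p = 0.976). Of 12 formative and primed markers, 10 were tested and 0 called by edgeR. Their median was -0.33, with 4 positive and 6 negative, and Pou3f1 was listed at 0 in all libraries. Dnmt3b, a de novo DNA methyltransferase, was at 55.0, 75.8 and 91.3 CPM in Ezh2 KO, against 47.6, 44.4 and 51.9 CPM in Ctrl, without overlap. Grhl2, an epithelial factor, was likewise higher without overlap, at 9.63 ± 2.21 CPM in Ezh2 KO and 5.66 ± 1.34 CPM in Ctrl (SD, n = 3 each). Foxd3, Zic2 and Sall2 were lower without overlap, with log2 fold changes of -0.47, -0.66 and -1.09. Of all tested genes, 4.07% were higher and 4.03% lower without overlap. These genes had few reads: Foxd3 was at 1.74 to 3.17 CPM and Zic2 at 1.08 to 3.80 CPM over all libraries. Sall2 was at 0.508, 0.463 and 0.469 CPM in Ezh2 KO, against 1.77, 0.603 and 0.637 CPM in Ctrl, so its value rested largely on Ctrl replicate 1. Lef1, a Wnt effector, was at 3.48, 1.81 and 0.593 CPM in Ezh2 KO, against 8.99, 7.49 and 1.49 CPM in Ctrl. The groups of Lef1 overlapped, and DESeq2 with the replicate block called it as lower (log2 fold change -1.60 ± 0.34 SE, adjusted p = 0.00289). Otx2, a factor of the epiblast, was at 17.7 ± 7.02 CPM in Ezh2 KO and 15.0 ± 6.68 CPM in Ctrl.

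Paralogs of the members gave 0 edgeR calls of 20 tested (25 listed), with a median log2 fold change of -0.12. Klf10, a TGF-beta-inducible factor and the paralog of highest CPM, averaged 257 ± 87.9 CPM in Ezh2 KO and 284 ± 44.2 CPM in Ctrl (SD, n = 3 each). Khdc3, a KH-domain relative of Dppa5a with a known role in oocytes and early embryos, was at 40.2, 38.9 and 26.5 CPM in Ezh2 KO, against 22.1, 17.8 and 14.3 CPM in Ctrl. Its libraries did not overlap, a pattern found as higher in 4.07% of all tested genes. DESeq2 with the replicate block called it (log2 fold change 0.95 ± 0.23 SE, adjusted p = 0.0162), as it did 0.285% of the genes it tested, whereas edgeR did not. It was named because of this value. Ooep, another KH-domain relative, was at 86.5 ± 27.0 CPM in Ezh2 KO and 83.6 ± 26.5 CPM in Ctrl.

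Klf2, Klf5, Tbx3 and Nr5a2 also act in other lineages, so markers of these were measured. Pecam1, which endothelium, pluripotent cells and germ cells all express, was at 145 ± 43.0 CPM in Ezh2 KO and 156 ± 39.6 CPM in Ctrl (SD, n = 3 each). The 12 primitive endoderm markers summed to 16.6 to 25.9 CPM in the Ezh2 KO libraries and 21.9 to 22.7 CPM in the Ctrl libraries. The 10 trophoblast markers summed to 42.3 to 58.2 CPM in Ezh2 KO and 44.8 to 48.7 CPM in Ctrl. The 8 mesoderm markers summed to 1.21 to 2.63 CPM in Ezh2 KO and 1.71 to 3.05 CPM in Ctrl, with Foxf1 listed at 0 throughout. The 10 endothelium and blood markers, mostly Pecam1, summed to 124 to 206 CPM in Ezh2 KO and 127 to 201 CPM in Ctrl. A sum can hide opposite moves within a list. Of 9 trophoblast markers tested, 2 were higher and 1 lower in Ezh2 KO without overlap. Among 9 primitive endoderm markers tested, 0 were higher and 1 lower. Of all tested genes, 4.07% were higher and 4.03% lower without overlap. Of the 40 genes in these 4 lists, 27 were tested and 0 called by edgeR. Their part in the members' levels was not tested, and in such bulk samples fewer cells of a type and less RNA per cell cannot be told apart.

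**Figure D5:**
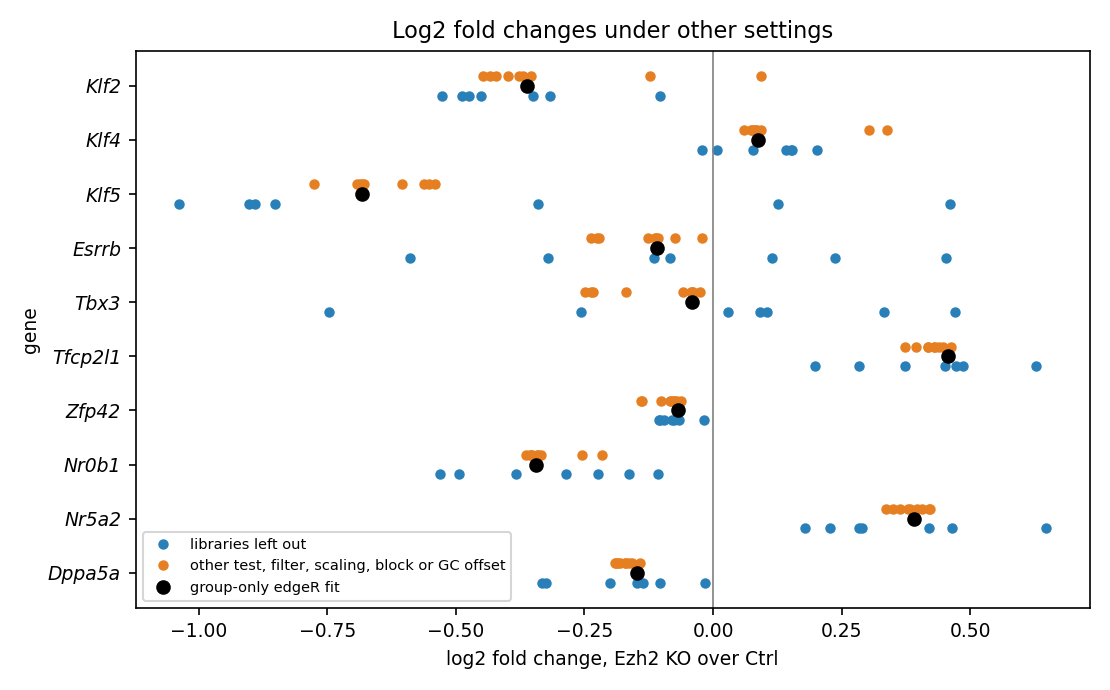
Log2 fold change of each naive gene, Ezh2 KO over Ctrl, in the group-only edgeR fit (black), under other tests, filters, scalings, the replicate block or GC offsets (orange) and with libraries left out (blue). Values of Tfcp2l1 and Nr5a2 are all above 0 and those of Zfp42, Nr0b1 and Dppa5a all below 0, while those of Klf2, Klf4, Klf5, Esrrb and Tbx3 lie on both sides.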

How the data were processed

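RNA-seq libraries of day 4 PGCLCs (3 Ezh2 KO, 3 Ctrl) were analysed from the deposited table of raw read counts, whole numbers per Ensembl gene ID. CASAVA 1.8.4, Trimmomatic 0.33, TopHat2 2.0.11 and featureCounts with builds mm9 and NCBIM37 are named, per the submitters' processing notes; settings, strand use and annotation version were not stated, so reads of overlapping or antisense genes cannot be told apart. Gene symbols, merged exon lengths and transcript GC came from GENCODE M21 by gene ID (32938 of 37991 IDs matched); no coordinates of that build were used with the counts. Promoter windows came from RefSeq.

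Genes kept by filterByExpr (minimum count 10) were scaled by TMM and tested over the whole table in edgeR 4.0.16 (R 4.3.3, robust quasi-likelihood F-test, group as the only term, two-sided, Benjamini-Hochberg, threshold 0.05). CPM are TMM-scaled; SE were derived from the F statistic. Deviations and principal components used log2 CPM with a prior count of 2. Alternatives were DESeq2 1.42.0 and its size factors, limma-voom (limma 3.58.1), other filters, the replicate block, a GC offset for each library (loess, span 0.5, fitted on 10579 genes; 791 tested genes without a GC value got none) and libraries left out. The fits were tested on simulated counts.

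Replicate numbers in the sample titles occur in both groups. Deviations from group means of same-numbered libraries correlated across genes at 0.58, 0.37 and 0.19 for numbers 1 to 3, each above 0.1, so the numbers were taken to pair the libraries. Among differently numbered libraries, Ezh2 KO replicate 2 and Ctrl replicate 3 correlated at 0.30, above the value of number 3, and the others were negative. Deviations cancel out within a group, so those negative values follow partly from the positive ones and are no separate support. The pairing is thus a hint from the data that no label states. Results by pairs or with the replicate block depend on it.

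The members and gene lists were chosen with earlier results of these data known. All members were named, and from each other list up to 4 tested genes of highest mean CPM, with genes past the threshold. A few list genes outside this rule (Khdc3, Rhox6, Rhox9, Lef1, Foxd3, Zic2, Sall2, Prdm1, Pou3f1, Foxf1 and the target Ezh2) were added, all but Prdm1 and Ezh2 after their values were seen.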

Additional observations from a re-analysis of the deposited data

How the results depend on the processing

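Under all 16 alternatives 0 of the 10 members were called, and the lowest adjusted p of any member was 0.492 (Tfcp2l1, edgeR with the replicate block). Of all genes, DESeq2 called 5 and DESeq2 with the replicate block 50, against 0 in edgeR; each of the other alternatives gave 0. The replicate block changed no call of a member. The median log2 fold change of the members was 0.19 without Ezh2 KO replicate 2 and Ctrl replicate 1, against -0.09 in the fit of all libraries, and -0.21 to 0.11 with single libraries left out. Of 160 member values, 12 changed sign. These were Klf2 under the GC offset (0.093), and Klf5 (0.46), Esrrb (0.45) and Tbx3 (0.47) without both of those libraries. With single libraries left out the ranges were -0.021 to 0.15 for Klf4, -1.04 to 0.13 for Klf5, -0.59 to 0.24 for Esrrb and -0.75 to 0.33 for Tbx3. The cause was not tested. Tfcp2l1 (0.20 to 0.63), Nr5a2 (0.18 to 0.65), Nr0b1 (-0.53 to -0.11), Zfp42 (-0.14 to -0.02) and Dppa5a (-0.33 to -0.02) kept their sign in all 16. With 3 libraries a group, the half-width of a member's 95% interval was 0.31 to 1.25 on the log2 scale. These intervals are not adjusted for the number of genes tested, so differences above that size could also go uncalled. Rhox6, for example, had a log2 fold change of 1.12 (95% interval 0.45 to 1.79) but an edgeR adjusted p of 0.976. That 0 members were called therefore leaves room for differences of such sizes.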
